A study of Mus musculus with 23 samples.

Results

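Gata2, Gata3, Gata4 and Gata6 encode transcription factors of the GATA family. They were followed across 8 groups of mouse tissue from the glands and lids around the eye, on Agilent arrays with 1 dye. Each gene was found by matching the transcript accession of an array probe to its RefSeq symbol, which gave 1 probe a gene (A_52_P233441 for Gata2, A_66_P111011 for Gata3, A_55_P2028894 for Gata4 and A_51_P411917 for Gata6). They are 4 of the 19752 genes that the arrays name. Gata6 was chosen by its measured signal, which was higher in the epithelium of the harderian gland (HG) than in that of the lacrimal gland (LG), so all its differences are given as descriptions with no test.

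The study set the lacrimal gland, which secretes the watery part of tears, beside the harderian gland, the lipid-secreting gland of the rodent orbit, and the eyelid. The groups were whole adult HG (3 arrays) and whole adult LG (2 arrays) at 7 weeks, then HG epithelium, HG mesenchyme, LG epithelium, LG mesenchyme, eyelid epithelium and eyelid mesenchyme at embryonic day 16.5 (3 arrays each). The eyelid included the conjunctiva, and the strain of every sample is labelled B6/CL. The labels name no mutation or treatment and do not say whether arrays of a group came from separate animals, so p-values measure the spread between arrays, part of which may be technical.

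GATA factors bind DNA through zinc fingers at the motif WGATAR and act with cofactors of the FOG, LMO and LDB families. GATA1, GATA2 and GATA3 are best known from blood cells. GATA2 also works in endothelium and mast cells, and GATA3 in T cells, mammary luminal epithelium and the inner root sheath of mouse hair. GATA4 and GATA6 shape the heart and the endoderm, and in mouse skin GATA6 marks the sebaceous duct.

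Because GATA proteins can bind near genes of their own family, the promoters of Gata2 and Gata3 in the RefSeq table of build GRCm38.p6 were read for WGATAR. Gata4 has no window in that table, and Gata6 was not read. The motif was spelled out as 4 words (AGATAA ending in A, its partner AGATAG ending in G, and with T in front TGATAA and likewise TGATAG). These were searched on both strands, and a position can match only 1 of them. Each window runs from 250 bases before to 50 bases after a transcript start in that table. The Gata3 start lies inside the span that RefSeq gives the gene, so it is not the outermost one. The Gata3 window (chr2:9878551-9878850, minus strand) is shown because Gata3 is the member whose compartment difference was tested and differed between the glands, with the matching word in capitals.
Gata3 promoter: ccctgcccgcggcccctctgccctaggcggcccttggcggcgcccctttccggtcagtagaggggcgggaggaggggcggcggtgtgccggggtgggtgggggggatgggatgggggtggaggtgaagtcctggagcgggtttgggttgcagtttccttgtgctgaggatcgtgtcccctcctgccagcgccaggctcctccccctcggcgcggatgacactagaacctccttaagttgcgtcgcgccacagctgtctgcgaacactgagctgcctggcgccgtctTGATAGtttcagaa
Its 1 match, TGATAG, begins 36 bases downstream of that start. Both Gata2 windows, chr6:88193641-88193940 and chr6:88198414-88198713 on the plus strand, held 0 matches. Of all 32851 windows in the table, 29.8% held at least 1 match, so a match in a window is common, and it is a string of letters rather than a measured site.

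Values below are log2 of the processed signal over the 75th percentile of the same array, and SDs are over arrays. Levels of different genes come from different probes and are not set against each other. Differences are the group named first minus the other, from 1 limma fit to all 23 arrays and 15813 genes, with adjusted p under 0.05 as the threshold. Comparisons that name the same group share its arrays. In tissue samples, fewer cells that make a transcript and less transcript per cell cannot be told apart. The adult LG arrays were dimmer than the others, with a 75th percentile of 139 and 194 units against 313 to 857 units elsewhere, and the share of spots that cleared background ran between 42.3% and 64.5%. The labelled compartments carried their markers. All 14 epithelial markers were higher in epithelium than in mesenchyme in HG, LG and eyelid. The mesenchymal markers were lower for 12, 14 and 14 of 14. Of all genes, 58.4%, 59.1% and 51.6% passed in these comparisons.

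Gata6 was high in both compartments of the embryonic HG, whereas in the embryonic LG it was high in mesenchyme and low in epithelium. Adult HG arrays read 4.88, 5.49 and 6.08, and adult LG arrays read -2.77 and -4.67, the lower of which was not well above background. HG epithelium read 4.54, 3.60 and 4.13, and HG mesenchyme read 2.98, 3.29 and 3.27. In these groups every HG array lay above every adult LG array, and HG epithelium lay above HG mesenchyme without overlap. LG epithelium read -1.81, -2.90 and -1.76, whereas LG mesenchyme read 2.93, 3.21 and 3.27. Eyelid epithelium read -2.27, -4.19 and -3.17, with the lowest not well above background, and eyelid mesenchyme read -0.45, -1.09 and -0.83. The LG and eyelid epithelia were the low embryonic groups, and the arrays of LG and HG mesenchyme overlapped.

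**Figure D1:**
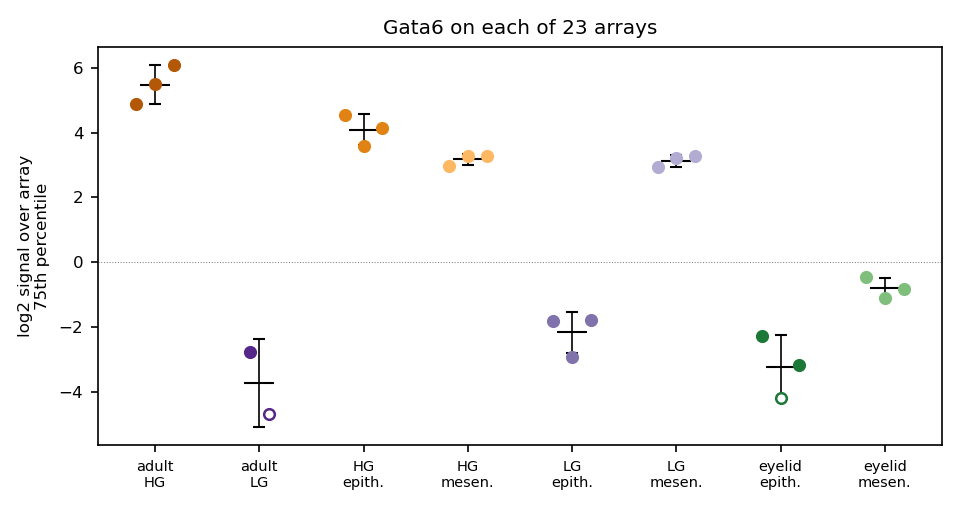
Gata6 level on each of the 23 arrays, as log2 signal over the array's 75th percentile, by group. Filled points are arrays well above background, open points are not, and bars show the mean and SD. The adult HG, HG epithelium, HG mesenchyme and LG mesenchyme groups lie at 2.93 or above, and the other 4 groups lie below 0.

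Ordered by mean, Gata6 ran 5.48 ± 0.60 in adult HG, 4.09 ± 0.47 in HG epithelium, 3.18 ± 0.17 in HG mesenchyme, 3.13 ± 0.18 in LG mesenchyme, -0.79 ± 0.32 in eyelid mesenchyme, -2.16 ± 0.64 in LG epithelium, -3.21 ± 0.96 in eyelid epithelium and -3.72 ± 1.35 in adult LG (SD, n = 3 each, n = 2 for adult LG). Neighbours in that order overlapped between HG and LG mesenchyme and among the lowest 3 groups, and did not overlap elsewhere. HG epithelium exceeded LG epithelium by 6.25 ± 0.48 (SE), or 76.0-fold, and within slides 1, 2 and 3 by 6.35, 6.50 and 5.89. That difference ranked 2 from the top among 15813 genes. Gata6 was chosen for this difference, so the rank is no separate evidence. HG epithelium exceeded eyelid epithelium by 7.30 ± 0.48, or 158-fold, with 2 of 3 eyelid arrays well above background.

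Gata6 in the mesenchymes of the glands overlapped. HG mesenchyme minus LG mesenchyme was 0.04 ± 0.48 (SE), and 0.05, 0.08 and 0.00 within the slides. HG mesenchyme exceeded eyelid mesenchyme by 3.97 ± 0.48, or 15.6-fold. LG mesenchyme exceeded eyelid mesenchyme by 3.92 ± 0.48, or 15.2-fold, and within slides by 3.37 to 4.29. That difference ranked 47 from the top among 15813 genes.

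The compartment difference of Gata6 ran in opposite directions in HG and LG. HG epithelium was above HG mesenchyme by 0.91 ± 0.48 (1.56, 0.32 and 0.86 within slides). LG epithelium was below LG mesenchyme by 39.2-fold (-5.29 ± 0.48, and -4.74, -6.11 and -5.03 within slides). Eyelid epithelium was 5.37-fold below eyelid mesenchyme (-2.42 ± 0.48), lower on 3 of 3 slides, with 2 of 3 eyelid epithelium arrays well above background. Of the 14 mesenchymal markers, 6 were higher and 0 lower in HG epithelium than in LG epithelium, where 6.44% of all genes passed. The markers summed to 124 to 252 in HG epithelium, against 104 to 142 in LG epithelium and 1430 to 1950 in HG mesenchyme. The part of these markers in the Gata6 differences was not tested.

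In whole adult glands Gata6 was again higher in HG. Adult HG exceeded adult LG by 9.21 ± 0.54 (SE), and by 8.26 and 10.76 on the slides that held both glands. Only 1 of 2 adult LG arrays was well above background, so the size is not settled: it was 8.26 without adult LG replicate 2, 10.16 without adult LG replicate 1 and 6.54 with another background correction (normexp). Of the 14 mesenchymal markers, 11 were higher and 0 lower in adult HG than in adult LG, where 55.9% of all genes passed. The markers summed to 305 to 623 and 146 to 162, and their part was not tested. Adult HG was above HG epithelium by 1.40 ± 0.48. Adult LG was below LG epithelium by 1.56 ± 0.54 with overlapping arrays, and with the other background correction the sign turned (0.19). Whole glands were set here against separated epithelium, so age and compartment cannot be told apart.

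Gata2, known from endothelium, mast cells and blood progenitors, was lower in epithelium than in mesenchyme in all 3 tissues. HG epithelium read -2.75, -1.95 and -1.43, against 1.5, 1.76 and 1.90 in HG mesenchyme. LG epithelium read -3.55, -3.55 and -3.71, against 0.98, 1.1 and 1.05 in LG mesenchyme. Eyelid epithelium read -4.18, -3.96 and -3.20, against 1.13, 1.22 and 0.94 in eyelid mesenchyme. No epithelial array reached a mesenchymal one. Gata2 was lower in epithelium by 13.6-fold in HG (-3.76 ± 0.32, SE, adjusted p = 1.45e-08), 25.1-fold in LG (-4.65 ± 0.32, adjusted p = 7.99e-10) and 29.4-fold in eyelid (-4.88 ± 0.32, adjusted p = 7.61e-10). The share of genes called was 58.4% in HG, 59.1% in LG and 51.6% in eyelid. Of 13 endothelial markers, 12 were lower and 0 higher in epithelium in each tissue (medians -3.50, -4.60 and -4.54 in HG, LG and eyelid). Of 9 mast cell markers, 8 were lower in each (medians -2.83, -4.14 and -5.36), with 1 higher in HG and 0 higher in LG and eyelid. All 10 macrophage markers were lower in each tissue too (medians -3.02, -3.66 and -3.69). The part of any of these cell types in the Gata2 difference was not tested. The compartment difference did not pass a test of HG against LG (0.88 ± 0.45, interval -0.06 to 1.83, adjusted p = 0.307).

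HG epithelium kept more Gata2 signal than the other epithelia. It was 2.96-fold above LG epithelium (1.56 ± 0.32, SE, adjusted p = 0.00378, within slides 0.80, 1.61 and 2.29) and 3.34-fold above eyelid epithelium (1.74 ± 0.32, adjusted p = 0.000207). Only 6.44% of genes passed between HG and LG epithelium (1019, and 2478 with the replicate number as a block), and 45.2% between HG and eyelid epithelium. The mesenchymal marker sums given above moved with the first of these differences, and endothelial markers summed to 34.1 to 37.7 in HG epithelium against 21.3 to 31.3 in LG epithelium, with 1 of 13 called higher and 0 lower. Against eyelid epithelium, 9 of the 13 endothelial markers were higher in HG epithelium and 0 lower, and 7 of the 14 mesenchymal markers were higher and 2 lower. Their part in the Gata2 differences was not tested. LG and eyelid epithelium differed by 0.18 ± 0.32 (interval -0.49 to 0.85, adjusted p = 0.691).

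Among the mesenchymes, the 3 HG arrays lay above all LG and eyelid arrays, but the differences did not pass (0.68 ± 0.32, SE, interval 0.01 to 1.35 over LG and 0.62 ± 0.32, interval -0.05 to 1.29 over eyelid, adjusted p = 0.188 for both), and both passed when only the arrays compared were fitted (adjusted p = 0.0102 and 0.0225). LG minus eyelid mesenchyme was -0.06 ± 0.32 (interval -0.73 to 0.61, adjusted p = 0.925). Adult HG arrays read -1.16, -2.16 and -2.47, and adult LG arrays read -5.14 and -5, neither of them well above background. By the processed signal, Gata2 was at least 2.17-fold higher in adult HG than in adult LG (adjusted p = 6.25e-07), where 55.9% of genes passed. That bound does not hold across background corrections: with the other one the log2 difference was 0.43 (adjusted p = 0.0983). In adult HG against adult LG, 11 of 13 endothelial markers were higher and 1 lower, with summed levels of 37.3 to 88.9 and 25.3 to 41.3, and their part was not tested. Adult HG and HG epithelium differed by 0.11 ± 0.32 (interval -0.56 to 0.79, adjusted p = 0.761).

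Gata3 was an epithelial transcript in LG and eyelid, while in HG it stood at the same level in both compartments. LG epithelium read 3.02, 2.82 and 3.06, against -1.62, -2.35 and -1.38 in LG mesenchyme. Eyelid epithelium read 4.07, 3.92 and 3.72, against 1.18, 0.41 and 1.34 in eyelid mesenchyme. HG epithelium read 1.16, 1.24 and 1.61, against 1.19, 1.40 and 1.52 in HG mesenchyme. The compartments were apart in LG and eyelid and overlapped in HG. Gata3 was 26.9-fold higher in LG epithelium than in LG mesenchyme (4.75 ± 0.29, SE, adjusted p = 2.38e-10) and 7.63-fold higher in eyelid epithelium than in eyelid mesenchyme (2.93 ± 0.29, adjusted p = 1.11e-07). In HG the difference was -0.03 ± 0.29 (interval -0.64 to 0.58, adjusted p = 0.943), so a difference beyond 0.64 on the log2 scale lay outside the 95% interval. The compartment difference in HG against that in LG was -4.78 ± 0.41 (adjusted p = 4.11e-07). It ranked 20 from the bottom among 15813 genes, of which 8.78% passed (1389, and 3745 with the replicate number as a block). Set against the eyelid, the mean compartment difference of the glands was -0.57 ± 0.36 for Gata3 (interval -1.32 to 0.18, adjusted p = 0.213), in a comparison where 42.1% passed.

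**Figure D2:**
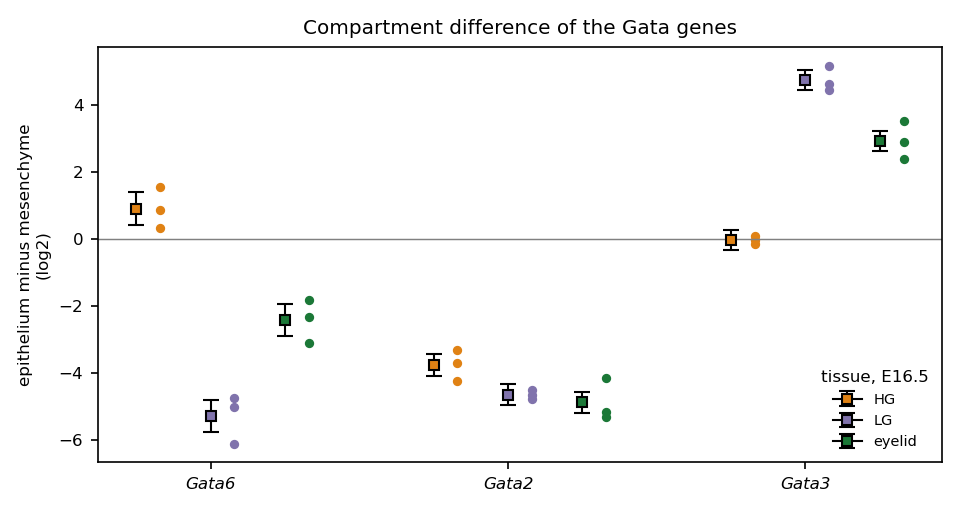
Epithelium minus mesenchyme (log2) of Gata6, Gata2 and Gata3 in HG, LG and eyelid at embryonic day 16.5. Squares and bars are the fitted difference and its SE, and small dots are the 3 slides. Gata6 lies at 0.91 in HG and -5.29 in LG, Gata2 is negative in all 3 tissues, and Gata3 is near 0 in HG alone.

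Both compartments contributed to the Gata3 pattern. HG epithelium was 3.09-fold below LG epithelium (-1.63 ± 0.29, SE, adjusted p = 0.00115, within slides -1.86, -1.58 and -1.45) and 5.93-fold below eyelid epithelium (-2.57 ± 0.29, adjusted p = 9.83e-07). HG mesenchyme was 8.88-fold above LG mesenchyme (3.15 ± 0.29, adjusted p = 4.60e-07, within slides 2.80, 3.75 and 2.90), where 14.5% of genes passed (2291, and 5238 with the replicate number as a block). LG mesenchyme was 6.76-fold below eyelid mesenchyme (-2.76 ± 0.29, adjusted p = 9.12e-07), where 31.5% of genes passed (4981, and 8369 with the block). HG and eyelid mesenchyme differed by 0.39 ± 0.29 (interval -0.22 to 1.01, adjusted p = 0.396), in a comparison where 22.7% of genes passed (3582, and 6755 with the block). LG epithelium was below eyelid epithelium by 0.94 ± 0.29 (adjusted p = 0.0130), where 46.1% of genes passed, and with arrays centred on their median the difference was -0.71 (adjusted p = 0.181).

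Markers of some other cell types differed between these mesenchymes. Epithelial markers summed to 5.73 to 24.1 in HG mesenchyme, against 7.90 to 17.1 in LG mesenchyme and 93.3 to 224 in eyelid mesenchyme, so HG and LG overlapped. Of these 14 markers, 1 was higher and 0 lower in HG than in LG mesenchyme, where 14.5% of all genes passed. In LG against eyelid mesenchyme 10 were lower and 0 higher, where 31.5% of all genes passed. Of 6 melanocyte markers, 5 were higher and 0 lower in HG than in LG mesenchyme, with sums of 83.9 to 114 and 6.35 to 7.14. Of 10 smooth muscle and pericyte markers, 4 were higher and 0 lower (59.0 to 63.3 and 33.9 to 39.0). Of 9 markers of neurons, 1 was higher and 4 lower (5.74 to 6.53 and 32.3 to 36.6). T cell markers overlapped in their sums (14 to 17.6 and 11.1 to 14.3), and 1 of 9 passed, near the 14.5% of all genes. Whether these cells carry the Gata3 signal of HG or eyelid mesenchyme was not tested.

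In adult glands Gata3 was low. Adult HG arrays read -2.65, -3.46 and -3.65, the last not well above background, and adult LG arrays read -2.60 and -1.93. The adult HG values ended just below the adult LG values. Gata3 was 24.0-fold lower in adult HG than in HG epithelium (-4.59 ± 0.29, SE, adjusted p = 8.91e-11) and 37.5-fold lower in adult LG than in LG epithelium (-5.23 ± 0.33, adjusted p = 9.55e-11), comparisons in which 70.3% and 70.2% of genes passed. Of 9 T cell markers, 2 were higher and 3 lower in adult HG than in adult LG, near the 55.9% of all genes that passed. Their part in the Gata3 levels was not tested. Gata3 itself was lower in adult HG than in adult LG by 0.99 ± 0.33 (adjusted p = 0.0154). This call was lost with median centring (adjusted p = 0.193), with quantile normalization (adjusted p = 0.0681), with only the arrays compared (adjusted p = 0.125), and without adult LG replicate 2 (-0.65, adjusted p = 0.188) or adult HG replicate 3 (-0.79, adjusted p = 0.0634).

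Gata4, a heart and endoderm factor of the same subfamily as Gata6, stayed near background and failed the filter on dim probes, so no fold is given. Its intensity was 4.27 to 12.3 units on the 7 arrays of slide 1 and 5.05 to 13.4 on the 8 arrays of slide 3, and 0 of these 15 arrays were well above background. On the 8 arrays of slide 2 it was 19.2 to 172 units, and 6 arrays were well above background. Those 6 came from 6 groups, 1 each of adult HG, adult LG, HG mesenchyme, LG epithelium, LG mesenchyme and eyelid epithelium. The 172 units were adult LG replicate 1, while adult LG replicate 2 read 13.4. The Gata4 readings above background therefore fell on a single slide and in no group on every array.

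**Figure D3:**
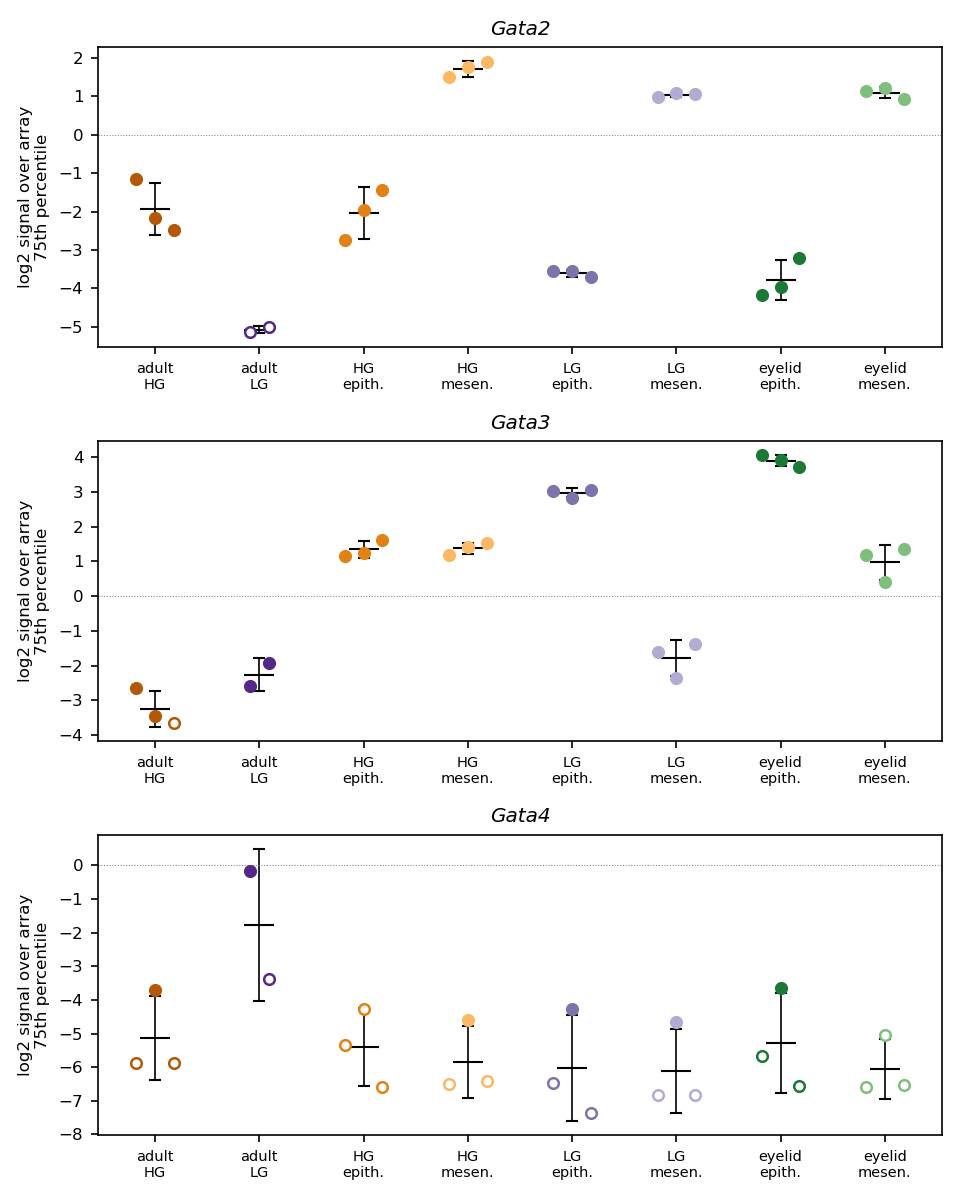
Gata2, Gata3 and Gata4 level on each array, as log2 signal over the array's 75th percentile, by group. Filled points are arrays well above background, open points are not, and bars show the mean and SD. Gata2 is above 0 in the 3 mesenchymes only, Gata3 is highest in eyelid and LG epithelium, and most Gata4 points are open.

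Of the remaining family members, Gata1 followed Gata2 in its direction between compartments. Gata1, a factor of red cells, platelets and mast cells, was lower in epithelium than in mesenchyme by 2.79 ± 0.34 in HG, 4.14 ± 0.34 in LG and 3.51 ± 0.34 in eyelid (SE, largest adjusted p = 1.25e-06). It was 3.29-fold lower in HG mesenchyme than in LG mesenchyme (-1.72 ± 0.34, adjusted p = 0.00156) and 3.37-fold lower than in eyelid mesenchyme (-1.75 ± 0.34, adjusted p = 0.000815). Among 9 measured mast cell markers, Gata1 itself included, 5 were lower and 0 higher in HG than in LG mesenchyme, where 14.5% of all genes passed. In HG against eyelid mesenchyme 8 of these markers were lower and 0 higher, where 22.7% of all genes passed. The markers summed to 40.4 to 46.5 in HG, 138 to 190 in LG and 322 to 401 in eyelid mesenchyme. Their part in the Gata1 and Gata2 levels was not tested. Gata5, known from endocardium and endoderm, was 3.27-fold higher in adult HG than in HG epithelium (1.71 ± 0.39, adjusted p = 0.000672) and 4.27-fold higher in adult LG than in LG epithelium (2.09 ± 0.43, adjusted p = 0.000309). In these comparisons 70.3% and 70.2% of genes passed. Before scaling, Gata5 read 715 to 1080 units in adult HG and 296 to 564 in HG epithelium. It read 494 to 547 in adult LG and 398 to 602 in LG epithelium, which overlap. The adult LG fold thus depends on the scaling of those dimmer arrays, and other scalings were not tried for Gata5. HG and LG did not differ in Gata5 by more than the spread in epithelium (0.00 ± 0.39, interval -0.81 to 0.81).

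**Figure D4:**
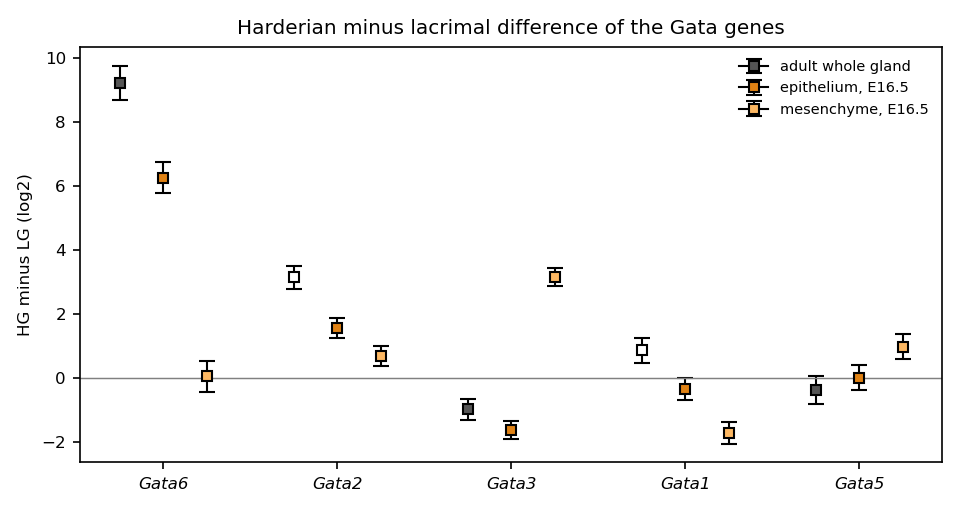
HG minus LG (log2) of Gata6, Gata2, Gata3, Gata1 and Gata5 in adult whole glands and in embryonic epithelium and mesenchyme, with the SE of the fit. White squares mark comparisons where no array of 1 group was well above background, so their size is not a measured fold. Gata6 lies at 9.21, 6.25 and 0.04, and Gata3 at -0.99, -1.63 and 3.15.

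Among cofactors and partners of GATA proteins, more genes were lower than higher in the epithelia. Of 22 measured of 23 listed, 13 were lower and 3 higher in HG epithelium than in HG mesenchyme, with a median difference of -1.48 against 0.03 over all genes. The counts were 11 lower and 5 higher in LG (median -0.62 against 0.11) and 11 lower and 5 higher in eyelid (median -0.30 against 0.05). With arrays centred on their median, the partners higher in epithelium numbered 3 in LG and 1 in eyelid. So 16 of 22 passed in each tissue, against 58.4%, 59.1% and 51.6% of all genes in HG, LG and eyelid. The endothelial markers given with Gata2 moved the same way, and their part was not tested. Lower in the epithelia were Ldb2, a LIM-domain binding adaptor (-3.79, -4.97 and -4.68 in HG, LG and eyelid), and the FOG-family cofactor Zfpm2, which was at least 14.8-fold lower in HG epithelium and at least 5.49-fold lower in LG epithelium. The LIM-only gene Lmo1 was higher in all 3 epithelia (2.61, 2.21 and 3.88). Runx1 was higher in HG and LG epithelium (1.39 and 2.55), with 2.69 and 3.65 from another probe.

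Between the glands, Tbx20, Lmo3 and Zfpm2 were among the partners with more signal in HG mesenchyme. In HG against LG mesenchyme 5 of 22 partners were higher and 1 lower (median 0.23 against 0.03), in a comparison where 7.9% of genes were higher and 6.59% lower (3 partners higher with arrays centred on their median). Tbx20, a T-box factor that works with Gata4 and Nkx2-5 in the heart, was at least 21.3-fold higher in HG mesenchyme than in LG mesenchyme (adjusted p = 7.81e-08) and at least 16.5-fold higher than in eyelid mesenchyme (adjusted p = 7.86e-08), neither of which read above background on any array. Lmo3 (3.03 ± 0.69, SE, adjusted p = 0.00518) and Zfpm2 (1.88 ± 0.49, adjusted p = 0.0134) were also higher in HG than in LG mesenchyme, and Ldb2 was lower (-1.72 ± 0.41, adjusted p = 0.00701). Between HG and LG epithelium 2 partners were higher and 0 lower, in a comparison where 3.44% of genes were higher and 3% lower. These were Tbx20, at least 1.80-fold, and Lmo2, an LMO cofactor of blood and endothelium (1.63 ± 0.32, adjusted p = 0.00287). Of 8 cardiac muscle markers, 2 were higher and 0 lower in HG than in LG mesenchyme, with sums of 2.83 to 8.91 and 0.667 to 0.715, and their part in the Tbx20 difference was not tested.

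**Figure D5:**
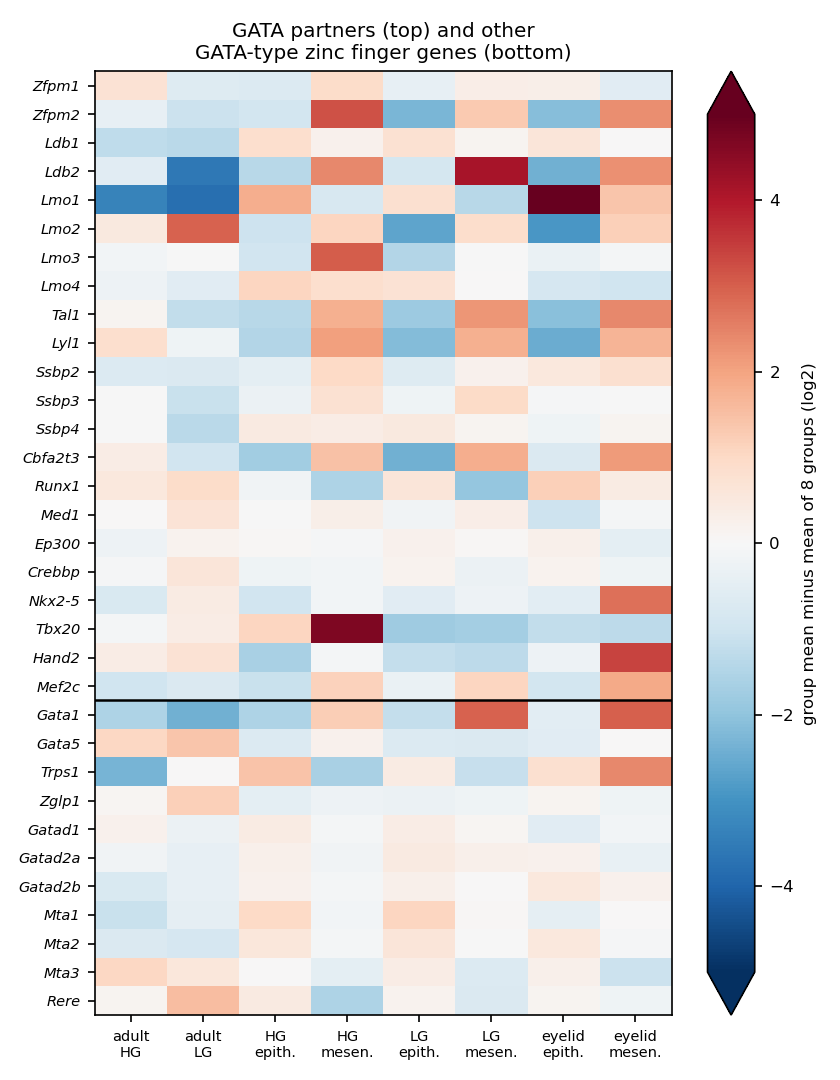
Group means of 22 GATA partners (above the line) and 11 other genes with GATA-type zinc fingers (below), each minus its mean over the 8 groups (log2, colours end at 5). Red is above and blue below the gene's own mean, and differences between rows are not levels. Tbx20 stands out in HG mesenchyme, Lmo1 in eyelid epithelium and Gata1 in LG and eyelid mesenchyme.

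Other genes with GATA-type zinc fingers, which include the repressor Trps1 and subunits of the NuRD complex, are listed apart, with Gata1 and Gata5 among them. Of 11, 7 were higher and 2 lower in HG epithelium than in HG mesenchyme (median 0.47 against 0.03), 5 higher and 1 lower in LG, and 3 higher and 4 lower in eyelid. The 2 that were lower in HG were Gata1 and Gata5. All genes passed at shares of 58.4%, 59.1% and 51.6% in these comparisons, so the counts in LG and eyelid were near the background. With arrays centred on their median the HG count was 3 higher and 1 lower. Trps1 was higher in HG epithelium (3.06 ± 0.18, SE, adjusted p = 2.48e-10) and LG epithelium (1.54 ± 0.18, adjusted p = 5.82e-07) than in their mesenchymes, and lower in eyelid epithelium than in eyelid mesenchyme (-1.63 ± 0.18, adjusted p = 3.89e-07). Its 2 other probes gave 3.16 and 3.19 in HG and -1.79 and -1.56 in eyelid.

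Endoderm genes listed beside Gata4 and Gata6 were mostly below the filter: 4 of 12 were measured. Foxa2, Foxa3, Hnf4a, Hnf4g, Cdx2 and Ihh were among those that did not pass it. Sox17, Hhex and Dab2 were lower in the epithelium of all 3 tissues, by 3.91, 3.58 and 2.98 in HG (SE 0.45, 0.57 and 0.38). Endothelial markers moved the same way there, and their part was not tested. The pioneer factor Foxa1 was at least 2.62-fold higher in HG epithelium than in LG epithelium (adjusted p = 0.00930). In adult glands the direction was the other way, with Foxa1 lower in adult HG than in adult LG (-8.63 ± 0.68, adjusted p = 5.24e-09), where Gata6 was higher.

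Genes of the sebaceous duct, where GATA6 acts in mouse skin, moved both ways between the glands. Of 9 measured, 1 was higher and 2 lower in HG than in LG epithelium (median -0.23 against 0.00), where 6.44% of all genes passed. The stem cell receptor Lgr6 was at least 7.95-fold higher (adjusted p = 0.000285). In adult HG against adult LG 3 were higher and 2 lower, near the 55.9% of all genes that passed, and Krt79, a keratin of the sebaceous duct, was higher (7.40 ± 0.37, SE, adjusted p = 1.00e-11). Of 11 measured sebocyte genes, 10 were higher and 0 lower in adult HG than in adult LG (median 6.46 against 0.14), where 55.9% of all genes passed, among them the lipid-droplet coat gene Plin2 (8.51 ± 0.27, adjusted p = 2.77e-14). In embryonic HG against LG epithelium, 2 of 11 sebocyte genes passed, both of them lower in HG.

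Luminal and general epithelial genes, keratins among them, were listed beside Gata3 and were mostly higher in epithelium in HG as in LG and eyelid. This list shares Krt8 and Krt18 with the epithelial markers, so its counts do not single out partners of GATA3. Of 17 measured, 15 were higher and 1 lower in HG epithelium than in HG mesenchyme (median 4.87 against 0.03), 15 higher and 1 lower in LG (median 4.94) and 14 higher and 1 lower in eyelid (median 3.10), against 58.4%, 59.1% and 51.6% of all genes that passed. Elf5, an ETS factor of luminal progenitors, was higher by 5.32 ± 0.48 in HG, 5.51 ± 0.48 in LG and 3.82 ± 0.48 in eyelid (SE). The T-box gene Tbx3 was lower in all 3 epithelia (-3.51, -5.66 and -3.32). Of 11 measured genes of the hair inner root sheath, where GATA3 acts in mouse skin, 7 were lower and 0 higher in HG than in eyelid epithelium, as in LG against eyelid epithelium, where 45.2% and 46.1% of all genes passed.

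Across the 8 group means, which share arrays and scaling, the genes whose pattern was most like each member were listed by Pearson correlation. Gata6 was followed by Bche, the butyrylcholinesterase gene (0.913), Gmfb (0.899), Usp45 (0.889), Sfxn5 (0.884) and Cfap126 (0.883). Bche, like Gata6, was high in adult HG (4) and in HG and LG mesenchyme (2.52 and 2.14), but stood at 0.84 in LG epithelium. None of these genes held the wide gap of Gata6 between HG and LG epithelium (4.09 and -2.16). In the same order, Bche read 1.85 and 0.84, Gmfb 4.49 and 4.15, and Usp45 0.77 and 0.63. Sfxn5 read 0.42 and -0.28, and Cfap126 0.73 and 0.56. Gata2 was followed by Gdf10, a BMP-family ligand gene (0.995), Cacna2d1 (0.988), Icam2, an endothelial adhesion gene (0.988), Adgra2 (0.986) and Shank3 (0.986). Gata3 was followed by Ctnnb1, the β-catenin gene (0.978), Ccdc3 (0.968), Ankrd33 (0.968), Ten1 (0.964) and Wnt5b, a Wnt ligand gene (0.955). For Ankrd33 the correlation over the 23 arrays was 0.325. Among the members, Gata6 and Gata2 correlated at 0.57, Gata6 and Gata3 at -0.42, and Gata2 and Gata3 at -0.08. Gata2 and Gata1 correlated at 0.86.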

How the data were processed

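Total RNA was labelled with Cy3 and hybridised to 1-colour Agilent arrays. Per the file headers, the authors read slide 1 with Feature Extraction 11.0.1.1 and slides 2 and 3 with 11.5.1.1, while the submitters' processing notes give 11.5.1.1. The deposited processed signal is an intensity, background-corrected by that software. The deposited value table is also an intensity, since its values equal the mean processed signal of a probe (median log2 ratio 0).

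Outlier spots were dropped, spots averaged per probe, log2 taken and each array's 75th percentile subtracted. A probe was kept if well above background on all arrays of at least 1 group, and the brightest probe stood for a gene, which left 15813 of 19752 genes. Of 55681 probes, 26056 were named through RefSeq accessions. limma 3.58.1 (R 4.3.3) fitted the 8 groups without a block (two-sided), with Benjamini-Hochberg adjustment, and was tested on simulated data. "At least" folds set the bright group against the lowest signal above background on the dim arrays, or the probe's own where higher.

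Replicate numbers follow slides, except in adult LG. Same-numbered embryonic arrays deviated together in every pair (r 0.153 to 0.575), so they are paired by slide. Named genes are the members, list genes past the threshold by 1 log2, up to 4 a direction, and the 5 most alike genes. Members and lists were chosen with earlier results of these data known. The files hold no mean signal, so normexp (offset 50) used median signals. The number of arrays limits the precision. Some genes of the lists are not reported here by name.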

Additional observations from a re-analysis of the deposited data

Results flagged for a closer look

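The compartment difference of Gata3, epithelium minus mesenchyme, differed between HG and LG by -4.78 on the log2 scale in a test of the interaction (SE 0.41, limma adjusted p = 4.11e-07). It was -0.03 in HG and 4.75 in LG. The compartment difference of Gata6 ran the opposite way in every slide of HG and LG, from 0.32 to 1.56 in HG and from -6.11 to -4.74 in LG, which gives 6.20 between the glands. In HG the fitted difference was 0.91 (SE 0.48). Most of the 6.20 is the HG over LG epithelium difference (6.25) for which Gata6 was chosen, since the mesenchymes differed by 0.04. It was therefore not tested and is no separate result.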

How the results depend on the processing

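Across 40 results for Gata6, Gata2 and Gata3 and the alternatives tried, 753 values were counted as unchanged. For most Gata6 differences that meant staying within the residual SD of the main value. Otherwise it meant the same side of the threshold, with the same sign wherever either fit passed. Slide or replicate number as a block changed no call of a member; the replicate block called 2478 genes between HG and LG epithelium, against 1019 without it. The filter, the probe rule, the prior, the value table and leaving out adult LG changed no call either. The normexp correction on median signals, chosen after seeing the data, gave Gata6 differences of -4.49 between LG epithelium and mesenchyme, 5.42 and 5.99 for HG epithelium over LG and eyelid epithelium and 6.54 for adult HG over adult LG, and turned adult LG over LG epithelium to 0.19 for Gata6 and 0.80 for Gata2 (adjusted p = 0.00275). It also gave Gata2 0.64 and 0.60 for HG over LG and eyelid mesenchyme (adjusted p = 0.0312 and 0.0329) and 0.43 for adult HG over adult LG (adjusted p = 0.0983), and Gata3 -0.68 for the compartment difference of the glands against the eyelid (adjusted p = 0.0408, against -0.57 and 0.213). Fitting only the groups compared gave Gata2 0.68 and 0.62 in those mesenchymes (adjusted p = 0.0102 and 0.0225) and Gata3 -0.99 between adult glands (adjusted p = 0.125). Gata3 between adult glands was -0.74 with median centring (adjusted p = 0.193) and -0.82 with quantile normalization (adjusted p = 0.0681); LG against eyelid epithelium was -0.71 with median centring (adjusted p = 0.181). Leaving out 1 array at a time, Gata6 ranged from 8.26 to 10.16 for adult HG over adult LG and from -2.52 to -0.61 for adult LG over LG epithelium, and Gata3 from -1.32 to -0.65 for adult HG over adult LG. The cause of these changes was not tested.

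With median centring the median of all genes moved by -0.47 in adult LG against LG epithelium, 0.25 between adult glands and 0.23 between LG and eyelid epithelium. Counts of genes called with median centring, against the fitted ones, were 617 and 1019 for HG against LG epithelium, 1198 and 2291 for HG against LG mesenchyme, 2153 and 3582 for HG against eyelid mesenchyme, 2697 and 4981 for LG against eyelid mesenchyme, 712 and 1389 for the compartment difference of HG against LG and 4129 and 6661 for that of the glands against the eyelid. With only the arrays compared they were 4260 for HG against LG mesenchyme, 2573 for the compartment difference of HG against LG and 4240, against 8832, for adult HG against adult LG. No planned normexp on mean signals and no second probe of a member could be run. Low signal limits the adult LG values of Gata6 and Gata2 and all values of Gata4.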
